A study of Mus musculus with 30 samples.

Results

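The comparison described here is that of the terminal ileum of mice overexpressing a membrane-restricted form of the cytokine TL1A, called Mem, with the ileum of control mice, called WT. Its members were chosen by label alone: all 5 ileum libraries of the Mem genotype and all 5 of the WT genotype, which make 10 of the 30 libraries of the series. The mice were on the C57bl/6 strain background, and polyadenylated RNA from a small piece of terminal ileum was sequenced. The Mem label names the construct TL1A Delta 69-93. It gives no promoter for this construct, and the WT label, although it names the control, also speaks of TL1A under the CD2 promoter, which is active in lymphocytes. Ages and pooling of animals are not given in the labels. WT replicate 1 and Mem replicates 3 and 5 were female and the other 7 libraries male, so the model carried a term for sex. All carried the same batch label. Another 6 ileum libraries, of mice with membrane and soluble TL1A (Mem+Sol), entered the fit to estimate the spread and are not compared.

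TL1A, the product of Tnfsf15, is a trimeric cytokine of the tumour necrosis factor family that is made as a membrane protein and can be shed. It binds the death domain receptor DR3, the product of Tnfrsf25, a receptor of lymphocytes, both T cells and the innate kind, that signals through the adaptor TRADD to nuclear factor kappa B. In the small intestine, type 2 innate lymphoid cells make IL-13, which turns stem cell progeny towards tuft and goblet cells, and tuft cells in turn make IL-25, which activates the innate lymphoid cells.

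Values below are CPM, read counts scaled by normalized library size to a common depth, listed in the order of replicates 1 to 5, and fold changes are Mem against WT on the log2 scale, ± the standard error of the edgeR fit. A gene is said to have risen or fallen where edgeR's quasi-likelihood test gave a Benjamini-Hochberg adjusted p under 0.05 over all 14959 genes tested. By that rule 748 genes (5.0%) were higher and 457 (3.06%) lower in Mem, 8.06% in both directions, and the median log2 fold change over all genes was 0.000626. Of the genes tested, 4.79% had all 5 Mem values above all 5 WT values and 3.94% had all 5 below. Every list of genes below is to be read beside these shares. The lists came to 602 different symbols in the count table, of which 524 passed the filter on low counts and were tested. Some genes stand on more than 1 list, so the counts of different lists are not all separate results. With bulk tissue, fewer cells of a type and less RNA per cell cannot be told apart.

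The libraries were not equally deep or equally alike. Totals were 4295039 to 13226790 counts in WT and 10632559 to 32653753 in Mem. On the first principal component, which held 55.7% of the variance of the 2000 most variable genes, WT libraries lay between -49.8 and -24.9 and Mem replicates 2 to 5 between 42.4 and 48.3. Mem replicate 1 lay between the groups, at -9.2. Set on a scale from the WT mean (0) to the mean of Mem replicates 2 to 5 (1), Mem replicate 1 had a median position of 0.374 over the genes that rose and 0.474 over those that fell. WT replicate 2 was the shallowest library and lay apart on the second component, at -45.7 against 2.58 to 25.4 for the other WT libraries. It carried RNA of genes known from the proximal small intestine: Gata4, a transcription factor of the duodenum and jejunum, stood at 0.386, 98.7, 3.65, 2.24 and 1.37 CPM in WT and 1.67, 6.05, 9.36, 10.1 and 15.4 in Mem, and Lct, the lactase gene, at 1.54, 518, 2.48, 0.747 and 0.759 in WT and 0.0983, 0.386, 0.610, 0.569 and 0.407 in Mem. WT replicate 2 held by far the highest level of both genes, and Gata4 was higher in each of Mem replicates 2 to 5 than in the other WT libraries. Counts are therefore also given without Mem replicate 1 and without WT replicate 2 where they move a list's count by over 1.5 times or end a call.

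**Figure D1:**
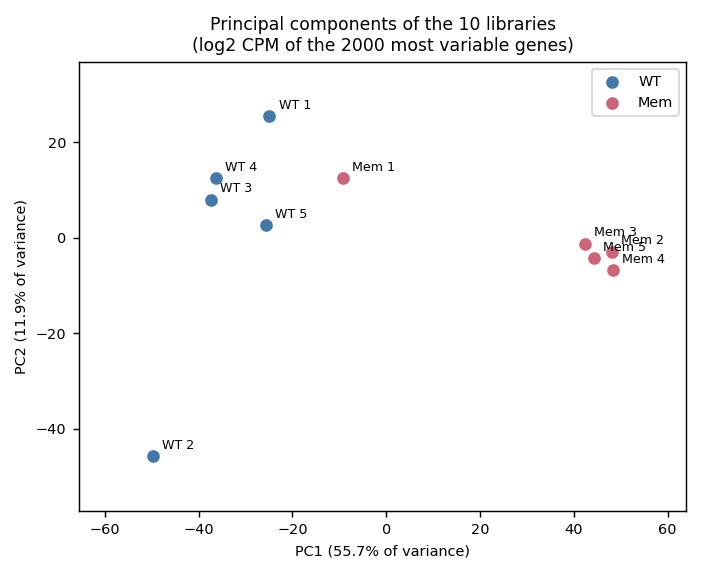
Principal components of log2 CPM of the 2000 most variable genes in the 10 libraries (PC1 55.7% and PC2 11.9% of the variance; each point is 1 library). Mem replicates 2 to 5 sit together at the right, WT libraries at the left, Mem replicate 1 in between at -9.2 on PC1, and WT replicate 2 apart at -45.7 on PC2.

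Without Mem replicate 1 the test called 2396 genes, 1279 (8.46%) higher and 1117 (7.39%) lower, among them 1195 of the 1205 called with all libraries, in the same direction. Without WT replicate 2 the shares were 3.38% and 1.58%, without both libraries together 6.30% and 5.06%, and in the 4 WT and 3 Mem male libraries alone 1.43% and 0.407%. Without Mem replicate 2 or Mem replicate 4 it called 448 each time, and without WT replicates 1 to 5 it called 911, 749, 794, 712 and 1028. Without Mem replicates 3 and 5 the counts were 797 and 727. A core of 394 genes, 293 higher and 101 lower in Mem, was called in the fit of all libraries and in each of the 10 fits that left 1 library out. Where the call of a gene named below did not hold in one of these fits, the libraries are given.

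**Figure D2:**
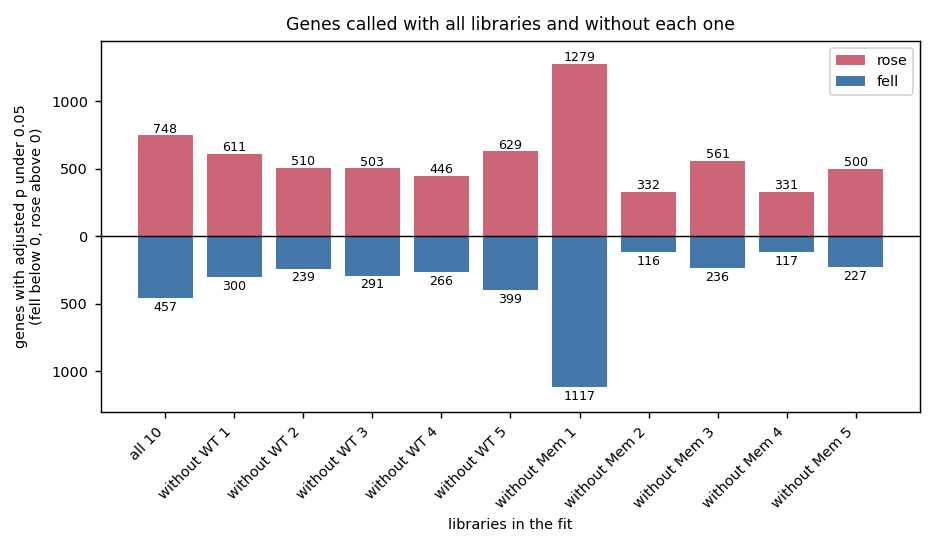
Number of genes with an edgeR adjusted p under 0.05 (y axis; rose above 0, fell below 0) with all 10 libraries and without each of them (x axis). Leaving out Mem replicate 1 raised the counts to 1279 and 1117, and leaving out Mem replicate 2 or 4 lowered those that fell to 116 and 117.

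The tissue carried genes of small intestine in both groups, which does not fix the position along it. Epcam, Vil1 and Cdx1 of the intestinal epithelium, Muc2 of goblet cells and Lyz1 and Defa24 of Paneth cells were all abundant, Vil1 for example at 2256 to 3758 CPM in WT and 1201 to 2759 in Mem. Fabp6, the bile acid binding protein of ileal enterocytes, stood at 5371, 7172, 5128, 5429.6 and 4155 CPM in WT and at 3120.2, 149, 980.3, 194 and 725 in Mem. All 5 Mem values lay below all 5 WT values, Mem replicate 2 lowest, but their spread was wide and the difference did not pass the test (log2 -2.31 ± 1.00, adjusted p = 0.167). Summed over the 8 tested ileal bile acid genes, the level was 6083 to 8869 CPM in WT and 775 to 4414 in Mem. Of 9 tested genes known from the proximal small intestine 2 rose and 2 fell, and 1 fell without WT replicate 2. Whether the pieces came from the same position along the ileum was not tested. Of the colon genes, Hoxb13 had 1 count and Hoxd13 had 0 over the 10 libraries. Adipoq of fat cells ranged from 0.391 to 33.2 CPM in WT and from 7.42 to 72.5 in Mem, highest in Mem replicate 1, and no fat or mesothelial gene of 12 tested was called in either direction.

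Transcripts of TL1A itself did not differ by the test. Tnfsf15 (chr4:63724600-63745059, build GRCm38, which is mm10) stood at 1.83, 7.25, 5.21, 4.80 and 5.92 CPM in WT and 3.64, 4.3, 5.20, 5.05 and 5.42 in Mem, a log2 fold change of -0.14 ± 0.32 (adjusted p = 0.832). WT replicate 1 was the lowest of the 10, and the Mem values all fell inside the WT range. Counts of the endogenous gene and of a transgene built from its coding sequence are not separated in the table. Tnfrsf25, the receptor DR3 (chr4:152115528-152120119), stood at 1.83, 2.33, 2.87, 2.78 and 2.35 in WT and 1.87, 5.10, 4.2, 3.98 and 2.85 in Mem. Mem replicates 2 to 4 were above every WT value while Mem replicate 1 was at the low end of WT, and the difference did not pass the test (log2 0.64 ± 0.32, adjusted p = 0.235).

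Downstream of the receptor, the genes of the pathway moved little. Of 14 tested members, 0 rose and 1 fell, 2 without Mem replicate 1, with a median log2 fold change of -0.11. The 1 that fell was Relb, a subunit of the non-canonical arm of nuclear factor kappa B, at 151, 229.5, 177, 204 and 159 CPM in WT and 142, 84.0, 105, 99.3 and 100.5 in Mem. The groups did not overlap and Mem replicate 1 was the highest of its group (log2 -0.76 ± 0.16, adjusted p = 0.0111). Tradd, the adaptor, gave -0.36 ± 0.18 (adjusted p = 0.228), Traf2 -0.08 ± 0.14 and Nfkb1 0.07 ± 0.19. Among costimulatory receptors and ligands of the same family, 1 of 8 tested fell and 0 rose, and 1 rose without Mem replicate 1. The member that fell was Cd27, a receptor of T and B lymphocytes, at 1.04 to 1.69 CPM in WT and 0.287 to 0.683 in Mem (log2 -1.68 ± 0.35, adjusted p = 0.00928). Tnfrsf4, which encodes OX40, stood at 0.835 to 1.30 CPM in WT and 1.61 to 3.34 in Mem, without overlap, and did not pass the test (adjusted p = 0.242).

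Of 7 tested alarmins and type 2 cytokines, 3 rose and 0 fell (median log2 1.73). Il33, an alarmin released by damaged epithelial and stromal cells, stood at 3.67, 7.51, 7.56, 3.74 and 6.07 CPM in WT and 5.31, 61.8, 24.5, 25.2 and 59.6 in Mem. Mem replicates 2 to 5 were all above the WT range, Mem replicate 1 within it (log2 2.37 ± 0.66, adjusted p = 0.0352). Il13, the cytokine that drives tuft and goblet cell hyperplasia, stood at 0.0965, 0, 0.391, 0 and 0 CPM in WT and 0.0983, 8.16, 0.861, 1.28 and 0.896 in Mem. It was hardly detected in WT and in Mem replicate 1, near 1 CPM in 3 Mem libraries and highest in Mem replicate 2 (log2 4.59 ± 1.35, adjusted p = 0.046). Il5, which supports eosinophils, had 3 counts in all WT libraries together and 118 in Mem, a ratio of 15.8 with a 95% counting interval of 5.29 to 77.9 (adjusted p = 0.0339). None of these 3 calls was stable. Without WT replicate 2, WT replicate 4, WT replicate 5, Mem replicate 2 or Mem replicate 4, each left out in turn, 0 members of the list passed, whereas 4 passed without Mem replicate 1. Il33 was also lost without WT replicates 1 or 3 or Mem replicate 5, Il13 without WT replicates 1 or 3 and Il5 without WT replicate 1. Il25, the tuft cell cytokine, stood at 0.386, 0, 0.261, 0.214 and 0.152 CPM in WT and 0.491, 0.712, 0.610, 0.924 and 0.896 in Mem. Its groups did not overlap and its adjusted p was 0.0517 (log2 1.73 ± 0.52). Tslp gave 0.51 ± 0.35 (adjusted p = 0.387), and Il4, with 5 counts in WT and 45 in Mem, was too scarce to be tested.

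Receptors for these cytokines rose in 4 of 10 tested members and fell in 0, with a median log2 fold change of 1.11. Il1rl1 (chr1:40404864-40465418) encodes the IL-33 receptor ST2. It stood at 7.14, 5.44, 8.08, 7.26 and 9.72 CPM in WT and 24.3, 210.2, 221, 200.2 and 151 in Mem, a log2 fold change of 4.42 ± 0.56 (adjusted p = 0.00035). All Mem libraries were above all WT libraries, and Mem replicate 1 lay far nearer to WT than to the other 4. Il17rb, the receptor for IL-25, was at 2.14 to 6.65 CPM in WT, at 5.50 in Mem replicate 1 and at 25.4 to 39.2 in the other Mem libraries (log2 2.35 ± 0.41, adjusted p = 0.00358). Il13ra2, the decoy receptor that binds IL-13 without activating STAT6, had 2 counts in WT and 383 in Mem, a ratio of 77.1 with a counting interval of 21.2 to 639 (adjusted p = 0.00814). Il9r rose as well (log2 2.60 ± 0.64, adjusted p = 0.0214), a call lost without WT replicates 4 or 5 or Mem replicates 2 or 4 (adjusted p up to 0.0857). The signalling chains Il4ra (log2 0.26 ± 0.18) and Il13ra1 (log2 -0.04 ± 0.23) did not pass the test.

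Genes that mark type 2 innate lymphoid cells and Th2 cells rose in 4 of 11 tested members and fell in 0, with a median of 1.19, and in 6 without Mem replicate 1, where 1 fell. Nmur1, the receptor through which the neuropeptide neuromedin U activates these innate cells, stood at 1.16, 0.259, 0.652, 0.534 and 1.9 CPM in WT and 1.08, 11.3, 7.75, 11.7 and 11.9 in Mem (log2 3.06 ± 0.57, adjusted p = 0.00537). The 4 other Mem libraries were well above WT, and Mem replicate 1 was inside the WT range. Klrg1, an inhibitory receptor of activated lymphocytes, was at 0.214 to 1.06 CPM in WT and 2.95 to 5.88 in Mem (log2 2.39 ± 0.45, adjusted p = 0.0051). Hpgds, the prostaglandin D2 synthase of haematopoietic cells, which is also made by tuft cells, was at 2.85 to 6.12 in WT and 6.58 to 19.6 in Mem (log2 1.68 ± 0.29, adjusted p = 0.00325). Rora, a transcription factor these cells require, rose by log2 0.97 ± 0.25 (adjusted p = 0.0258) but not without WT replicates 1, 2, 3 or 4 or Mem replicates 2, 4 or 5 (adjusted p up to 0.0955). Gata3, their master regulator, was at 2.43 to 13.3 CPM in WT and 6.89 to 30.4 in Mem and did not pass the test (adjusted p = 0.154).

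**Figure D3:**
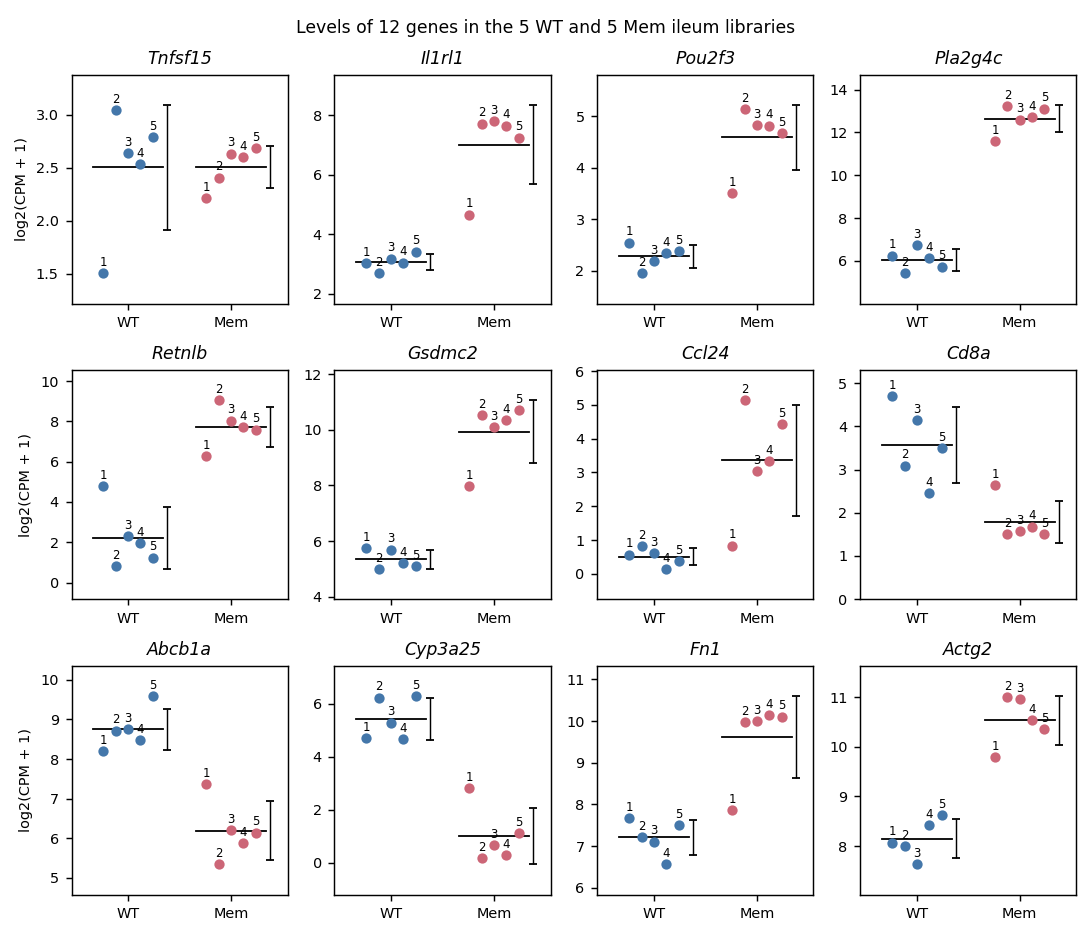
Level of 12 genes as log2(CPM + 1) (y axis; scales differ between panels and do not all start at 0) in each WT and Mem library; digits are replicate numbers, horizontal lines group means and bars ± 1 SD (n = 5). Tnfsf15 overlaps between the groups, and for most genes that rose Mem replicate 1 is the Mem library closest to WT.

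Tuft cell genes were higher in Mem as a group. Tuft cells are the chemosensory cells of the epithelium, and they sense succinate and other microbial metabolites through a taste-like pathway. Of 15 tested members 11 rose and 0 fell, with a median log2 fold change of 2.32, and 9 had all Mem values above all WT values. Leaving out 1 library gave 9 (without Mem replicate 4) to 12 (without Mem replicate 1), and the 7 male libraries alone gave 7. Pou2f3, the transcription factor that specifies the lineage, stood at 4.82, 2.85, 3.52, 4.06 and 4.18 CPM in WT and 10.4, 34.5, 27.3, 27.3 and 24.5 in Mem (log2 2.63 ± 0.27, adjusted p = 5.4e-05). Mem replicate 1 was above every WT library and below every other Mem library. Trpm5, the cation channel at the end of the taste cascade, stood at 19.2, 14.5, 21.5, 12 and 18.3 CPM in WT and 43.9, 113, 124, 155 and 129 in Mem (log2 2.72 ± 0.33, adjusted p = 0.00021). The order was the same, with Mem replicate 1 alone in the gap. Siglecf, which the table lists as Siglec5 and which eosinophils carry too, was at 7.91, 3.63, 8.08, 9.08 and 8.43 CPM in WT and 15.4, 46.0, 45, 57.6 and 51.8 in Mem (log2 2.52 ± 0.34, adjusted p = 0.00047).

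Other members of the tuft cell list serve structure, regulation and sensing. Among structural and regulatory genes, Dclk1, a kinase used as the standard tuft marker (log2 2.32 ± 0.31), Avil, an actin regulator of the apical tuft (log2 2.59 ± 0.37), and Gfi1b, a transcription factor (log2 3.31 ± 0.38), all rose with adjusted p of 0.00043, 0.00065 and 0.00017. Of the sensory chain, Sucnr1, the succinate receptor (log2 2.89 ± 0.52), and Plcb2, the phospholipase of taste signalling (log2 1.49 ± 0.35), rose with adjusted p of 0.00426 and 0.0152. Plcb2 was not called without Mem replicate 4 (adjusted p up to 0.0552). The remaining members that rose were Gnat3, the alpha subunit of gustducin (log2 2.99 ± 0.73, adjusted p = 0.0207), and Gng13, a gamma subunit of the same cascade (log2 2.30 ± 0.53, adjusted p = 0.0153). Gnat3 was not called without WT replicates 1 or 4 or Mem replicate 4 (adjusted p up to 0.0985) and Gng13 not without Mem replicate 2 (adjusted p up to 0.0593). Chat, which makes acetylcholine in tuft cells and in neurons, rose by 1.71 ± 0.27 (adjusted p = 0.00183). On the list of enteric neuron, glia and interstitial cell genes 3 of 14 tested members rose, namely Chat, Kit and Ano1, while the neuronal genes Elavl4 (0.46 ± 0.43) and Ret (0.33 ± 0.35) did not pass the test. Tas1r3, a taste receptor subunit, stood at 1.39 to 2.87 CPM in WT and 1.67 to 2.63 in Mem (adjusted p = 0.922).

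Genes of lipid mediator synthesis moved with them. Of 13 tested genes 9 rose and 0 fell (median log2 1.49). Hpgds, 1 of the 9, was already counted with the type 2 lymphocyte genes. Without Mem replicate 2, 6 rose, and without Mem replicate 1, 10 rose and 1 fell. Pla2g4c, a phospholipase of the cytosolic group IV (chr7:13311507-13360674), had the largest rise of all genes named here. It stood at 74.8, 41.7, 105, 68.1 and 52.1 CPM in WT and 3113, 9535, 6209.9, 6650.3 and 8823 in Mem (log2 6.57 ± 0.46, adjusted p = 1e-06). Even Mem replicate 1, the lowest of its group, was far above the highest WT library. Alox5, which starts leukotriene synthesis, stood at 7.43, 2.85, 5.73, 3.42 and 5.62 CPM in WT and 11.8, 60.1, 51.2, 65.2 and 55.5 in Mem (log2 3.21 ± 0.40, adjusted p = 0.00025). Its helper Alox5ap (log2 2.48 ± 0.34, adjusted p = 0.00047) and Ltc4s, which makes leukotriene C4 (log2 1.67 ± 0.34, adjusted p = 0.00804), rose too. Of the cyclooxygenases, Ptgs2 rose by 1.49 ± 0.33 (adjusted p = 0.0121) and Ptgs1 by 0.80 ± 0.20 (adjusted p = 0.0214), the latter not without WT replicates 3 or 4 or Mem replicates 2 or 4 (adjusted p up to 0.0812). Alox15, an enzyme of eosinophils, macrophages and epithelium, rose by 3.30 ± 0.75 (adjusted p = 0.0139) and was not called without Mem replicate 2 (adjusted p up to 0.0519). Hpgd, which degrades prostaglandins, was lower in every Mem library than in any WT library, at 60.8 to 89.9 against 105 to 186 CPM, with an adjusted p of 0.0581.

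Genes that IL-13 and IL-4 induce in epithelium and macrophages had the highest median of the lists with more than 10 tested members, a log2 fold change of 3.59. Of 16 tested, 11 rose and 0 fell, and the count ran from 9 without Mem replicate 2 to 13 without Mem replicate 1. Retnlb, an antiparasitic resistin-like protein of goblet cells (chr16:48816856-48818892), stood at 26.5, 0.777, 3.91, 2.88 and 1.37 CPM in WT and 76.9, 525, 261, 209 and 191 in Mem (log2 5.46 ± 0.84, adjusted p = 0.00133). WT replicate 1 was higher than the other WT libraries, and still below Mem replicate 1. Mptx1, a secreted pentraxin (chr1:174330518-174332877), stood at 4.24, 3.11, 3.00, 2.24 and 3.04 CPM in WT and 37.4, 326, 259.5, 259.6 and 259.9 in Mem (log2 6.09 ± 0.55, adjusted p = 2.5e-05). WT libraries were alike within 2 CPM of each other, and Mem replicate 1 lay between them and the other Mem libraries. Retnla, a resistin-like protein of macrophages and epithelium, was at 0.130 to 5.11 CPM in WT and 13.3 to 56.0 in Mem (log2 4.17 ± 0.73, adjusted p = 0.00351).

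The gasdermin C genes, a cluster on chromosome 15 that encodes pore-forming proteins, rose together. Gsdmc2 (chr15:63824328-63845193) stood at 52.8, 31.1, 50.8, 36.3 and 33.4 CPM in WT and 249, 1486, 1102, 1310.0 and 1661 in Mem (log2 4.69 ± 0.53, adjusted p = 0.00013). All Mem libraries were above WT, and Mem replicate 1 was far below the other 4. Gsdmc3 rose by 3.91 ± 0.39 and Gsdmc4 by 3.92 ± 0.40 (adjusted p = 4.6e-05 and 4.9e-05), and Gsdmc itself, at under 2 CPM everywhere, by 3.28 ± 0.72 (adjusted p = 0.0118), not without Mem replicate 2 (adjusted p up to 0.0519). These genes are near-identical copies, so the counts do not settle how reads fall among them. Clca1, a mucus protein of goblet cells that the table lists under the older name Clca3, was at 2133 to 3886 CPM in WT and 4720.2 to 12567 in Mem (log2 1.65 ± 0.35, adjusted p = 0.0102). Itln1, a lectin on the list of IL-13 induced genes, gave 0.60 ± 0.38 (adjusted p = 0.358).

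Promoters are shown for 3 genes that rose and whose window held a match to at least 1 of 2 motifs: an effector, a tuft cell sensor and the IL-33 receptor. They do not stand for the other genes that rose, and the shares with a match are given below the sequences. The windows, from RefSeq on GRCm38.p6, run from 250 bases before to 50 after an annotated start and are given 5′ to 3′ in the direction of the gene, with 2 motifs in capitals. They are TTC and GAA with any 4 bases between them, the spacing bound by STAT6, and ATGCAAAT, the octamer bound by POU factors, both searched on both strands. All 3 genes lie on the plus strand, Retnla at chr16:48842359-48842658, Sucnr1 at chr3:60081619-60081918 and Il1rl1 at chr1:40429320-40429619. The table holds 2 windows for Il1rl1, both inside the annotated span of the gene and downstream of its first base. The one shown is the upstream one, and the other, at chr1:40439379-40439678, held 0 matches to either motif.
Retnla: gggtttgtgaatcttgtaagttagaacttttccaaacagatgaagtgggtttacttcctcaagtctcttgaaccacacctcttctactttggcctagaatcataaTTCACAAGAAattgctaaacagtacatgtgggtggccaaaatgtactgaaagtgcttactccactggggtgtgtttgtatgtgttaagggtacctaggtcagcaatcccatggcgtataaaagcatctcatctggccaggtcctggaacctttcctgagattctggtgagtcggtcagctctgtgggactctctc
Sucnr1: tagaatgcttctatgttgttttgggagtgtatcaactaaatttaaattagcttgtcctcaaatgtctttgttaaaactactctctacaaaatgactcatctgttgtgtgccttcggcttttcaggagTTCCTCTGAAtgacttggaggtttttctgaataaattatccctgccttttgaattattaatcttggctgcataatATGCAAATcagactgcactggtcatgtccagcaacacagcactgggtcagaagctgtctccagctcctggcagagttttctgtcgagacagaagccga
Il1rl1: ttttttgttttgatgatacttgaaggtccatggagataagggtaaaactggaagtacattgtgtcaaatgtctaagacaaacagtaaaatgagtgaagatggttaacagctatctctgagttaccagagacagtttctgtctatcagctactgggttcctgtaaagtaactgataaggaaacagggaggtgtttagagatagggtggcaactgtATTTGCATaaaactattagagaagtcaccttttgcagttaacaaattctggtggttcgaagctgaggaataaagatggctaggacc
Retnla held 1 match to the STAT6 spacing, Sucnr1 1 match to each motif and Il1rl1 1 match to the octamer. Of the tuft cell genes that rose, 10 had a window in the table and 4 of these held the STAT6 spacing (Dclk1, Gfi1b, Gnat3 and Sucnr1), 40% against 8.01% of all 27025 genes with a window. Of the 11 IL-13 induced genes that rose, 5 had a window and 1 of these held it. Retnlb, Gsdmc2 and Gsdmc4 had no window, nor did Pou2f3 of the tuft cell genes. Of the lipid mediator and type 2 receptor genes that rose, 0 of 7 and 0 of 4 with a window held it. The shares rest on few genes, picked by their rise in these data. The octamer was in 1 of the 10 tuft cell genes, 0 of the 5 IL-13 induced, 1 of the 7 lipid mediator and 1 of the 4 receptor genes, and in 1.97% of all genes. These matches are letters in a window and were not tested as binding sites.

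Of 10 tested type 2 chemokines 3 that draw granulocytes and monocytes rose and 1 that draws lymphocytes fell, with a median of 0.93. Without Mem replicate 2, 1 rose, and 2 fell without Mem replicate 1. Ccl24, or eotaxin 2, stood at 0.482, 0.777, 0.521, 0.107 and 0.304 CPM in WT and 0.786, 34.1, 7.24, 9.17 and 20.4 in Mem (log2 5.14 ± 0.94, adjusted p = 0.00473). Mem replicates 2 and 5 were highest, and Mem replicate 1 was barely above the highest WT library. Ccl11, or eotaxin 1, stood at 12.2, 16.3, 11.3, 8.65 and 8.43 CPM in WT and 21.2, 63.5, 32.6, 39.7 and 53.4 in Mem (log2 1.75 ± 0.43, adjusted p = 0.0198), without overlap, a call lost without WT replicates 1 or 4 or Mem replicates 2 or 4 (adjusted p up to 0.0892). Ccl8 rose by 2.01 ± 0.45 (adjusted p = 0.0128), not without Mem replicate 2 (adjusted p up to 0.0503). Ccl25, the epithelial chemokine that draws CCR9-bearing lymphocytes to the small intestine, fell (log2 -1.07 ± 0.30, adjusted p = 0.0408). Its groups did not overlap, at 345 to 544 and 162 to 294 CPM, but the call held only without Mem replicate 1 among the 10 fits that left out 1 library. Ccl28 stood at 457, 122, 196, 117 and 53.7 CPM in WT and 302, 20.1, 19.7, 16 and 19.6 in Mem, where replicate 1 was far above the others, and did not pass the test (adjusted p = 0.407).

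Among cell types that these chemokines attract, 4 of 6 tested eosinophil genes rose and 0 fell (median 2.87), 2 without Mem replicate 2. The 4 were Ccr3, Ear11, Siglecf and Alox15. Siglecf and Alox15 were already counted with the tuft cell and lipid mediator genes, and Ear11 with the IL-13 induced genes. Their rises are not separate results. Ccr3, the eotaxin receptor, was at 0 to 1.35 CPM in WT and 0.491 to 6.11 in Mem (log2 3.22 ± 0.78, adjusted p = 0.0192), not called without WT replicate 4 or Mem replicates 2 or 4 (adjusted p up to 0.0627). The eosinophil ribonuclease Ear11, listed as Rnase2a, had 3 counts in WT and 574 in Mem, a ratio of 77.0 with a counting interval of 26.2 to 375 (adjusted p = 0.0141), and 0 counts in Mem replicate 1. The defining granule gene Epx had only 4 counts in WT and 7 in Mem and was not tested, and Prg2 gave 1.23 ± 0.54 (adjusted p = 0.177). Of 9 tested mast cell genes 1 rose (2 without Mem replicate 1), Kit, at 62.1, 46.6, 53.3, 52.3 and 61.9 CPM in WT and 75.0, 168, 177, 177 and 164 in Mem (log2 1.4 ± 0.19, adjusted p = 0.00048). Its groups did not overlap, but Kit is also the receptor of interstitial cells and other lineages, and the mast cell proteases Mcpt1 (log2 0.19 ± 0.92) and Mcpt2 (log2 0.45 ± 0.98) did not pass the test. Of 6 tested neutrophil genes 2 rose, 1 without Mem replicate 2. Retnlg, a resistin-like gene, stood at 3.38, 1.30, 1.30, 0.961 and 0.531 CPM in WT and 5.80, 16.6, 10.4, 16.8 and 13.1 in Mem (log2 3.11 ± 0.44, adjusted p = 0.00065), without overlap. S100a8 and S100a9, which neutrophils make in bulk, had 3 and 7 counts in WT and 37 and 58 in Mem and were not tested.

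Cytotoxic and intraepithelial lymphocyte genes went the other way. Of 11 tested members 8 fell and 0 rose, with a median log2 fold change of -1.77, and 4 had all Mem values below all WT values. Leaving out 1 library gave 4 (without WT replicate 1 or Mem replicate 4) to 8, and the 7 male libraries alone gave 0. Cd8a, the coreceptor of cytotoxic T cells, stood at 24.8, 7.51, 16.7, 4.48 and 10.2 CPM in WT and 5.21, 1.84, 1.97, 2.20 and 1.83 in Mem (log2 -2.32 ± 0.43, adjusted p = 0.0051). WT libraries spread widely, WT replicate 4 lowest, and Mem replicate 1 lay just above it while the other 4 were near 2 CPM. Gzma, a granzyme, stood at 116, 20.7, 79.4, 26.5 and 40.0 CPM in WT and 17.8, 9.47, 5.67, 10.3 and 4.52 in Mem (log2 -2.49 ± 0.62, adjusted p = 0.0234). The groups did not overlap, yet the call was lost without WT replicates 1 or 3 or Mem replicates 2, 3, 4 or 5 (adjusted p up to 0.0639). Gzmb, another granzyme (log2 -2.42 ± 0.52), Klrd1, which encodes the receptor CD94 (log2 -2.06 ± 0.36), and Cd160 (log2 -1.60 ± 0.27) fell with adjusted p of 0.0111, 0.00351 and 0.00319, each called with any 1 library left out. Tbx21, the transcription factor T-bet, fell (log2 -1.77 ± 0.42, adjusted p = 0.0163), not without WT replicate 1 or Mem replicate 4 (adjusted p up to 0.0682).

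Other lymphocyte groups gave fewer calls. Of the type 3 lymphocyte list 4 members were tested, and 1 rose and 1 fell. In each fit that left out 1 library 1 fell, whereas 1 rose only without Mem replicate 1 or Mem replicate 3. Il17a, Il17f, Il22, Il23r and Ccr6 of this list were too scarce to be tested. The T cell receptor complex had 0 of 12 tested genes past the test, with a median of -0.63, and 4 fell without Mem replicate 1. Cd3e, for example, was at 8.58 to 45.2 CPM in WT, 19.2 in Mem replicate 1 and 2.65 to 7.27 in the others. Regulatory T cell genes had 0 of 9 past the test with all libraries, while 2 rose without WT replicate 3 and 1 without Mem replicate 1, and DR3 is known on these cells. Foxp3 stood at 1.93, 0.259, 0.652, 0 and 0.531 CPM in WT and 3.14, 1.78, 1.15, 1.42 and 2.28 in Mem (log2 1.52 ± 0.62, adjusted p = 0.145), and the ranges overlapped, WT replicate 1 being above 3 of the 5 Mem libraries. B cell genes (0 of 7) moved in no case past the test. Of the plasma cell list 1 of 10 fell, Sdc1, which is also an epithelial proteoglycan (log2 -0.85 ± 0.23, adjusted p = 0.032), not without WT replicates 1, 2, 3 or 4 or Mem replicates 2, 3, 4 or 5 (adjusted p up to 0.112). Of 15 macrophage and dendritic cell genes 1 rose (3 without Mem replicate 1), Batf3 (log2 1.18 ± 0.34, adjusted p = 0.0426), not without WT replicates 1, 2, 4 or 5 or Mem replicates 2, 4 or 5 (adjusted p up to 0.182).

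Counts of interferon response genes differed with and without Mem replicate 1. Of 15 interferon response genes 1 fell with all libraries, Irf7 (log2 -0.83 ± 0.25, adjusted p = 0.0467), lost without WT replicates 1, 2, 3, 4 or 5 or Mem replicates 2, 4 or 5 (adjusted p up to 0.149), and 7 fell and 1 rose without Mem replicate 1. In that library Ifit1, Cxcl9 and Ido1 stood at 69.9, 18.3 and 35.4 CPM, within the WT ranges of 37.2 to 93.8, 9.07 to 21.0 and 17.6 to 83.9. The highest values among the other 4 Mem libraries were 16.2, 2.94 and 12.5 CPM. MHC class II genes had 0 of 8 past the test and 1 that fell without Mem replicate 1, with WT replicates 1 and 3 and Mem replicate 1 all high. H2-Aa was at 912, 467, 1004, 171 and 233 CPM in WT and 728, 277, 333, 250.0 and 299 in Mem. The median of the list was -0.49.

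Genes of drug and steroid metabolism known from the absorptive epithelium fell. The summed level of general epithelial genes, given further below, was also lower in Mem replicates 2 to 5 than in WT. Its share in these falls was not tested. Of 15 tested cytochrome P450 and conjugation genes 11 fell and 0 rose, with a median log2 fold change of -2.23, and 8 had all Mem values below all WT values. The count was 7 when Mem replicate 2 or 4 was left out, 13 when Mem replicate 1 was, 9 without WT replicate 2 and 4 in male libraries alone. Cyp3a25, a P450 of the subfamily that oxidizes many drugs, stood at 24.8, 74.1, 38.1, 24.2 and 77.4 CPM in WT and 5.99, 0.119, 0.574, 0.213 and 1.18 in Mem (log2 -4.79 ± 0.99, adjusted p = 0.00909). Mem replicates 2 to 5 were near or under 1 CPM and Mem replicate 1 lay between them and WT. Cyp2d26 (chr15:82790107-82794452) stood at 90.2, 212, 51.0, 92.2 and 110.0 CPM in WT and 14.1, 6.02, 6.78, 10.0 and 14 in Mem (log2 -3.31 ± 0.46, adjusted p = 0.00055). Here Mem replicates 1 and 5 were level, and WT replicate 2 was the highest WT library. Members of the Cyp3a subfamily are close copies, and reads may be shared among Cyp3a11 (log2 -4.86 ± 1.05), Cyp3a13 (log2 -1.65 ± 0.31) and Cyp3a25.

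The 10 largest falls among well expressed genes held several other enzymes of this kind. The carboxylesterases Ces2a (log2 -2.43 ± 0.48) and Ces1f (log2 -2.41 ± 0.50), the aldehyde dehydrogenase Aldh1a7 (log2 -2.24 ± 0.44), Cyp4v3 (log2 -2.48 ± 0.50) and the protease inhibitor Serpina1b (log2 -2.93 ± 0.54) had adjusted p of 0.00729, 0.00933, 0.00688, 0.00843 and 0.0051. Hsd3b3, a steroid dehydrogenase (log2 -2.58 ± 0.56, adjusted p = 0.0116), was not called without WT replicate 1 (adjusted p up to 0.0528). Cyp4b1, another P450 (log2 -2.19 ± 0.49, adjusted p = 0.0122), was not called without Mem replicate 2 (adjusted p up to 0.0515). Abcb1a, the efflux pump P-glycoprotein, stood at 293, 419.9, 434, 356 and 772 CPM in WT and 165, 39.5, 73.1, 57.8 and 69.8 in Mem (log2 -2.32 ± 0.46, adjusted p = 0.00772). All Mem libraries were below all WT libraries, Mem replicate 1 the nearest. Of the glucuronosyltransferases, Ugt1a1 fell (log2 -2.24 ± 0.55, adjusted p = 0.0206), not without WT replicate 1 or Mem replicates 2 or 4 (adjusted p up to 0.0754).

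Digestive and absorptive genes fell in part. Of 15 brush border enzymes 4 fell and 0 rose (median -0.85), 0 without Mem replicate 2 or Mem replicate 4, 1 without WT replicate 2 and 8 without Mem replicate 1. Alpi, the intestinal alkaline phosphatase, was at 398 to 1060.0 CPM in WT and 147 to 377 in Mem (log2 -1.34 ± 0.31, adjusted p = 0.0146), not called without Mem replicates 2 or 4 (adjusted p up to 0.0591). The maltase Mgam fell (log2 -1.01 ± 0.29, adjusted p = 0.0413), not without WT replicates 2, 3 or 5 or Mem replicates 2, 3, 4 or 5 (adjusted p up to 0.111), whereas the sucrase Sis stood at 337 to 1339 CPM in WT and 498 to 1283 in Mem (adjusted p = 0.915). Lct was called (log2 -7.14 ± 1.91, adjusted p = 0.0316) with 518 CPM in WT replicate 2 and under 3 CPM in every other library, and was not called without WT replicate 2 or Mem replicates 2, 4 or 5 (adjusted p up to 0.17). Of 17 lipid uptake genes 2 rose and 3 fell, and 7 fell without Mem replicate 1. The sterol exporter subunits Abcg5 (log2 -1.35 ± 0.29) and Abcg8 (log2 -1.57 ± 0.32) fell (adjusted p = 0.0107 and 0.00905), while Fabp1, a fatty acid binding protein more typical of the proximal gut, rose by 2.77 ± 0.59 and the lipoprotein receptor Scarb1 by 1.10 ± 0.22 (adjusted p = 0.0108 and 0.00711). These 4 calls held with any 1 library left out.

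Of 8 bile acid genes 1 fell (2 without Mem replicate 1), the basolateral transporter subunit Slc51a, at 797, 901, 921, 798 and 996 CPM in WT and 636, 250.2, 433, 288 and 421 in Mem (log2 -1.07 ± 0.32, adjusted p = 0.0471). The groups did not overlap, and the call held only without Mem replicate 1 among the fits that left out 1 library. The apical transporter Slc10a2 gave -0.74 ± 0.51 (adjusted p = 0.397), with WT replicate 2 the lowest library of all at 37.6 CPM. Fgf15, the hormone that ileal enterocytes release on bile acid uptake, was at 25.1, 118, 30.1, 5.55 and 26.2 CPM in WT and 23.7, 139.6, 256, 153 and 131 in Mem. Mem replicates 2 to 5 were all above WT, Mem replicate 1 was inside the WT range, and the test was not passed (log2 1.70 ± 0.91, adjusted p = 0.27). Of 14 sugar, amino acid and peptide transporters 3 fell, 0 without Mem replicate 2 or Mem replicate 4 and 6 without Mem replicate 1, and 1 rose without Mem replicate 1 or WT replicates 2 or 5. Slc7a9, a cystine transporter, fell (log2 -0.79 ± 0.18, adjusted p = 0.0149), not without Mem replicates 2 or 4 (adjusted p up to 0.0649).

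**Figure D4:**
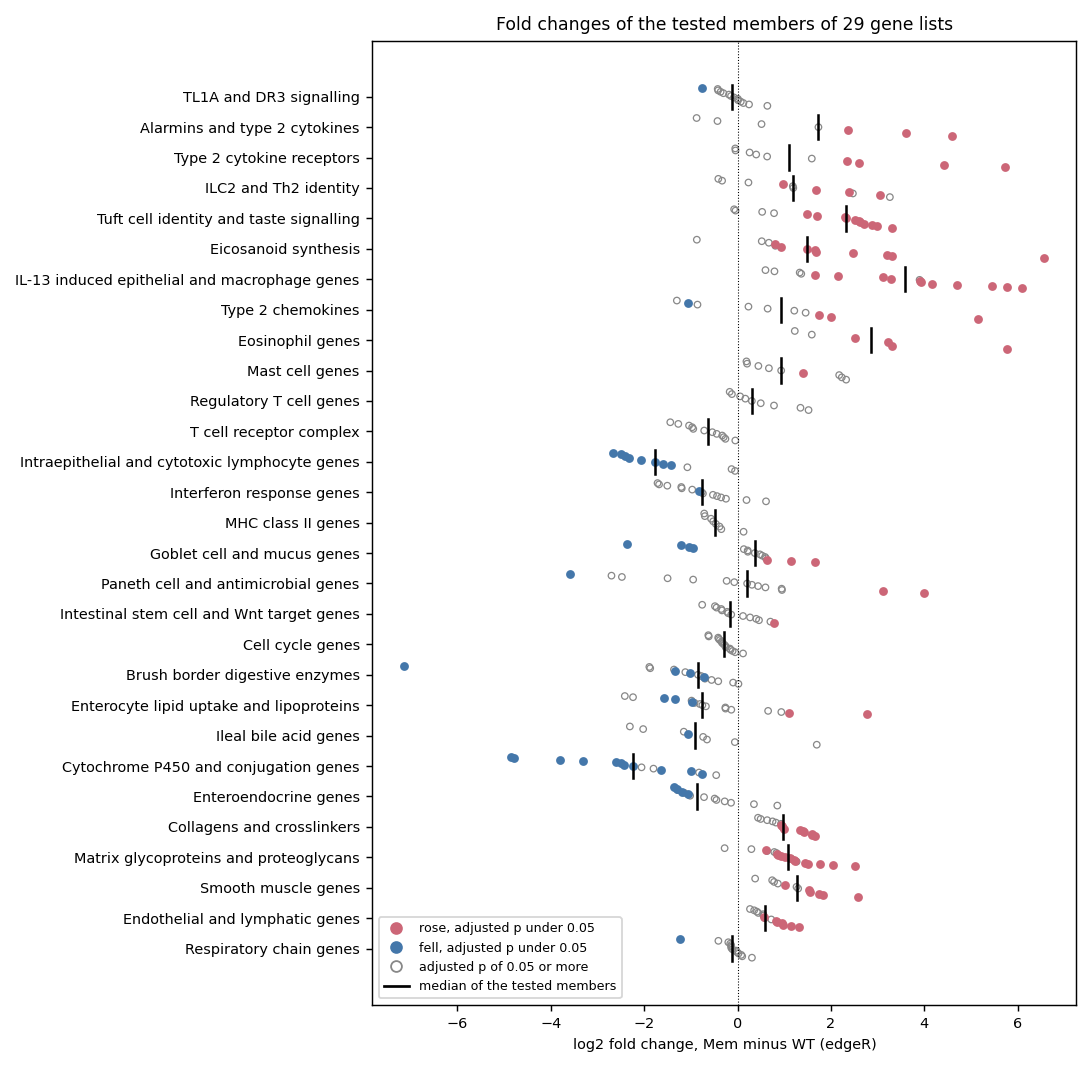
Log2 fold changes, Mem minus WT, of every tested member (points) of 29 gene lists (rows), filled where the edgeR adjusted p was under 0.05, with the list median as a bar. The medians of tuft, IL-13 induced, matrix and muscle genes lie to the right of 0 and those of P450 and cytotoxic lymphocyte genes to the left. Cell cycle genes and, apart from 1 member that fell, respiratory chain genes lie close to 0.

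Goblet cell genes were called in both directions. Of 15 goblet cell genes 3 rose and 4 fell, 2 without WT replicate 2. Spdef, a transcription factor that matures goblet cells, was at 35.6 to 49.1 CPM in WT and 63.6 to 121 in Mem (log2 1.15 ± 0.23, adjusted p = 0.00804), and Clca1 rose as given above. Fcgbp, a large mucus protein, stood at 5903, 8297, 8119, 6097 and 8365 CPM in WT and 4126, 2049, 2878, 2561 and 3620.0 in Mem (log2 -1.21 ± 0.26, adjusted p = 0.0116). The groups did not overlap, and the call was lost without Mem replicate 4 (adjusted p up to 0.0506). Zg16, a lectin of the mucus (log2 -2.38 ± 0.63, adjusted p = 0.031), and Tff3, a trefoil peptide (log2 -1.04 ± 0.28, adjusted p = 0.0314), fell too, Zg16 not without WT replicates 1, 2 or 4 or Mem replicates 2, 3 or 4 (adjusted p up to 0.103) and Tff3 not without WT replicates 1, 2 or 4 or Mem replicates 2, 3, 4 or 5 (adjusted p up to 0.0993). Muc2, the main gel-forming mucin, was at 3095 to 4607 CPM in WT and 3469 to 7727 in Mem (log2 0.53 ± 0.28, adjusted p = 0.267). None of the 4 falls of this list held without Mem replicate 4.

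Among 15 Paneth cell and antimicrobial genes 2 rose and 1 fell, and 4 fell without Mem replicate 1. Ang4, an antimicrobial ribonuclease, stood at 605, 1116, 884, 675 and 770.5 CPM in WT and 3413, 10931, 7442, 8842 and 7634 in Mem (log2 3.11 ± 0.42, adjusted p = 0.00043). It was already counted with the IL-13 induced genes. Reg4, a lectin of intestinal secretory cells (chr3:98222138-98236748), stood at 391, 227, 134, 317 and 245 CPM in WT and 524, 6064, 4551, 5984 and 4723 in Mem (log2 4.0 ± 0.57, adjusted p = 0.00065). Mem replicate 1 was high in Ang4 but only just above WT in Reg4. Reg3a, an antibacterial lectin (chr6:78380709-78383839), stood at 36.3, 86.3, 27.0, 80.2 and 83.3 CPM in WT and 11.2, 1.34, 3.19, 3.62 and 3.22 in Mem (log2 -3.58 ± 0.64, adjusted p = 0.00437). Its relatives Reg3b and Reg3g, which may share reads with each other, were at 585 to 9233 and 609.8 to 4928 CPM in WT. In Mem replicate 1 they were at 4631 and 2263 CPM, and in the other 4 Mem libraries at most at 340.1 and 115. WT replicate 2 was the lowest WT library for both. With all libraries they did not pass the test (adjusted p = 0.134 and 0.0749). Lyz1 (log2 -0.95 ± 0.58) and Defa24 (log2 0.21 ± 0.40) of Paneth cells did not pass it either.

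Enteroendocrine genes fell in 4 of 14 tested members and rose in 0 (median -0.87), 1 without WT replicate 2 and 0 without WT replicate 4, Mem replicate 2 or Mem replicate 4. Chga, chromogranin A, stood at 90.4, 151, 73.1, 139 and 73.0 CPM in WT and 67.0, 40.1, 39.2, 31.8 and 30.6 in Mem (log2 -1.30 ± 0.33, adjusted p = 0.024). The groups did not overlap, with Mem replicate 1 the highest of its group, and the call was lost without WT replicates 2 or 4 or Mem replicates 2, 4 or 5 (adjusted p up to 0.0829). Chgb (log2 -1.06 ± 0.28) and the hormones neurotensin, Nts (log2 -1.19 ± 0.31), and secretin, Sct (log2 -1.36 ± 0.36), fell with adjusted p of 0.0295, 0.0275 and 0.0284. Chgb was not called without WT replicates 2 or 4 or Mem replicates 2, 3, 4 or 5 (adjusted p up to 0.0955), Nts not without WT replicates 2, 4 or 5 or Mem replicates 2 or 4 (adjusted p up to 0.0938) and Sct not without WT replicates 1 or 4 or Mem replicates 2, 3, 4 or 5 (adjusted p up to 0.096). Sst, somatostatin, gave 0.35 ± 0.30 (adjusted p = 0.515). Stem cell genes were called in 1 of 14, Ephb3 (log2 0.78 ± 0.18, adjusted p = 0.0172), not without Mem replicates 2 or 4 (adjusted p up to 0.0773), and 1 fell without Mem replicate 1, with Lgr5 at -0.48 ± 0.32 and Olfm4 at 0.27 ± 0.60. Cell cycle genes were called in 0 of 16 (median -0.29) and 1 fell without WT replicate 5 or Mem replicate 1, and Mki67 gave -0.28 ± 0.35.

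Below the epithelium, part of the matrix, muscle and vessel genes rose. The general epithelial genes moved beside them: their summed level was 14900 to 19760 CPM in WT, 16340 in Mem replicate 1 and 10970 to 13460 in Mem replicates 2 to 5. Of the 11 general epithelial genes 1 rose, Krt18, and 0 fell (median -0.27), and 2 fell without Mem replicate 1. Krt18 was not called without WT replicates 1, 2, 3, 4 or 5 or Mem replicates 2, 3, 4 or 5. The share of these levels in the results on matrix, muscle and vessels, or on absorptive and junction genes, was not tested. Of 16 collagens and crosslinking enzymes 9 rose and 0 fell (median 0.97), although 1 alone had no overlap. Over this list WT replicate 1 was the highest WT library and Mem replicate 1 the lowest Mem library. Col1a2, of the main fibrillar collagen, stood at 539, 285, 243, 285 and 218 CPM in WT and 468, 1015, 739.8, 981 and 831 in Mem (log2 1.34 ± 0.26, adjusted p = 0.00611). Mem replicate 1 was below WT replicate 1. Of 20 matrix glycoproteins and proteoglycans 13 rose and 0 fell (median 1.07). Fn1, fibronectin, stood at 203, 147, 137, 93.3 and 179.5 CPM in WT and 232, 1009, 1025, 1127 and 1103 in Mem (log2 2.51 ± 0.39, adjusted p = 0.00143). Mem replicates 2 to 5 were tightly grouped, far above Mem replicate 1, which was itself above every WT library. Tnc, tenascin C (log2 1.76 ± 0.35, adjusted p = 0.00736), Sparc (log2 1.45 ± 0.26, adjusted p = 0.00401) and Col6a2 (log2 1.65 ± 0.32, adjusted p = 0.00598) rose with any 1 library left out. The 2 counts fell to 5 for collagens (without WT replicates 2, 4 or 5 or Mem replicates 2 or 4) and to 6 for glycoproteins (without Mem replicates 2 or 4).

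Of 12 smooth muscle genes 6 rose and 0 fell (median 1.28), and 8 had all Mem values above all WT values. The count was 3 without WT replicate 2 or Mem replicate 2, 8 without Mem replicate 1 and 0 in male libraries alone. Actg2, the enteric smooth muscle actin, stood at 268, 254, 197, 343 and 394 CPM in WT and 891, 2057, 1996, 1482 and 1313 in Mem (log2 2.57 ± 0.53, adjusted p = 0.00866). Mem replicate 1 was the lowest of its group and still well above the highest WT library. Des, desmin, rose by 1.83 ± 0.40 (adjusted p = 0.0113). Summed over the 12 genes the level was 3137 to 6973 CPM in WT and 9613 to 16490 in Mem, and how much muscle each piece of tissue held was not tested. Of 15 endothelial genes 7 rose and 0 fell (median 0.59), 2 without Mem replicate 4, among them Vwf (log2 1.31 ± 0.29, adjusted p = 0.0117) and Tie1 (log2 0.85 ± 0.17, adjusted p = 0.00798), which held with any 1 library left out. WT replicate 4 was the lowest library for both. Of the fibroblast list 3 of 12 rose, and 1 without WT replicates 2 or 3 or Mem replicates 2 or 4. Cd34, of stromal and endothelial cells, did so with any 1 library left out (log2 1.29 ± 0.24, adjusted p = 0.00485), while the telocyte factor Foxl1 gave 0.06 ± 0.41 (adjusted p = 0.944).

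**Figure D5:**
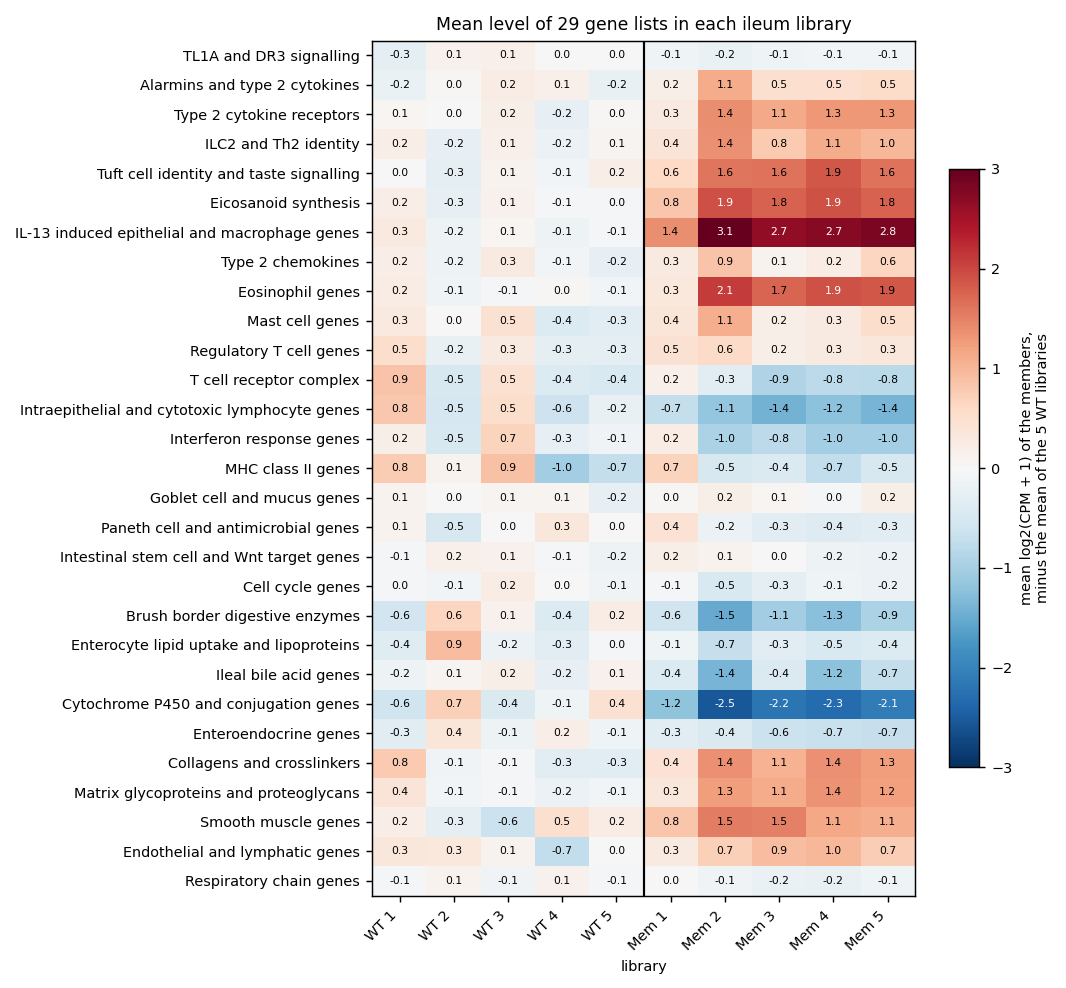
Mean log2(CPM + 1) over the tested members of 29 gene lists (rows) in each library (columns), minus the mean of the 5 WT libraries (colour and number). Mem replicate 1 takes an intermediate value for tuft (0.6), IL-13 induced (1.4) and P450 genes (-1.2), and lies with WT replicates 1 and 3 for MHC class II genes (0.7).

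Of 13 genes of the exocrine pancreas 4 were tested and 3 rose, relatives of pancreatic lipase and colipase, while the tested elastase gene Cela1 was not called. Pnliprp1, a lipase-related protein, stood at 1.06, 4.14, 0.652, 2.46 and 1.82 CPM in WT and 7.37, 99.5, 67.5, 103 and 78.2 in Mem (log2 5.13 ± 0.69, adjusted p = 0.00043). All Mem libraries were above WT, and Mem replicate 1 was far below the other 4. Pnliprp2, a galactolipase, rose by 3.87 ± 0.50 and Clps, colipase, by 2.41 ± 0.45 (adjusted p = 0.00037 and 0.0051). The other members, among them the defining enzymes of the pancreas, were at or near 0 and too scarce to be tested. Some had most of their WT counts in WT replicate 4, such as Cela2a (17 of 18) and Ctrb1 (19 of 20), with 6 and 19 counts in Mem. Over the 10 libraries Prss1 had 1 count, Amy2a5 had 0, and Pnlip, the classical lipase, had 1 in WT and 6 in Mem.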

How the data were processed

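RNA of ileum tissue was put into RNAlater, homogenised, selected for poly(A) and made into libraries by PCR, per the labels' protocols. The deposited tables hold raw counts per gene symbol, 24062 symbols in the ileum table. The submitters' processing notes name CASAVA, TopHat2 and mm10. For the counting program, the annotation and the strand setting, nothing is given in the sources used here. The table holds 27 symbols turned into dates, which name no gene. Replicates are not said to be separate animals, so the p-values reflect the spread among these libraries alone, which may be technical.

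The 16 ileum libraries were fitted in edgeR 4.0.16 (R 4.3.3) with TMM scaling, a filter on low counts (filterByExpr) and terms for genotype and sex, leaving 14959 genes. The contrast was Mem minus WT, with robust quasi-likelihood tests and Benjamini-Hochberg adjustment at 0.05. CPM values use TMM-normalized library sizes, and their counting precision is lowest in WT replicate 2, with 4295039 counts. Intervals of ratios are exact 95% intervals and cover counting error only. The script was tested on simulated counts.

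The comparison and the gene lists were chosen with earlier results of these data known. The named genes are Tnfsf15 and Tnfrsf25, the 10 largest rises and 10 largest falls (mean log2 CPM of at least 3, no overlap, called in at least 8 of 10 fits that leave out 1 library), and, per list, the members at positions 1 to 3 and up to 6 further called members. Ccl28, Fgf15, Gnat3, Gng13 and further members that are named were singled out after their values were seen. Genes of the Defa, Gsdmc, Reg3, Cyp3a, Mcpt and Saa families may share reads. Alternatives were DESeq2 1.42.0, other scaling, no filter, no sex term, fewer libraries, a replicate block, thinned counts and leaving out each library. Leaving out Mem replicate 1 and WT replicate 2 together was chosen after seeing the data. Promoters came from RefSeq on GRCm38.p6. Results on some genes are not reported here.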

Additional observations from a re-analysis of the deposited data

Results flagged for a closer look

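Each gene given library by library above was screened by Dixon's test on the log2(CPM + 1) scale. The test asks whether 1 library lies far from the other 4 of its group, and chance alone passes it in about 1 in 20 independent groups. Of the 84 groups, 19 passed. These are 42 genes in the same 10 libraries, many picked by their values, so that rate is no yardstick for the 19. Ccl28 and Fgf15 were named after their values were seen. In Mem, replicate 1 was the library apart in 15 of them. It was low for Mptx1 (37.4 CPM), Pnliprp1 (7.37), Gsdmc2 (249), Il1rl1 (24.3), Fgf15 (23.7), Reg4 (524), Nmur1 (1.08), Trpm5 (43.9), Siglecf, listed as Siglec5 (15.4), Alox5 (11.8), Kit (75.0) and Fn1 (232). It was high for Cd8a (5.21 CPM), H2-Aa (728) and Ccl28 (302). In WT, replicate 2 was apart for Lct (518 CPM), Gata4 (98.7) and Siglecf (3.63), high for the first pair and low for the third. WT replicate 3 was apart for Il13, at 0.391 CPM. What sets Mem replicate 1 and WT replicate 2 apart was not tested.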

How the results depend on the processing

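With 1205 genes called, 748 higher and 457 lower, the fits that left out 1 library called 448 to 2396, of which 331 to 1279 rose and 116 to 1117 fell. The low counts came without Mem replicate 2 or 4 and the high ones without Mem replicate 1. The cause was not tested. DESeq2 called 1926 genes, 845 of them lower. The male libraries alone, 4 WT against 3 Mem, called 275, of which 214 rose and 61 fell, from fewer samples. Without both Mem replicate 1 and WT replicate 2, an alternative added after seeing the data, 772 genes fell. The samples share only replicate numbers (correlations of same-numbered deviations from -0.311 to 0.463), and with the number as a replicate block 1688 genes were called and 715 fell. None of the 150 named genes that were called changed sign in any of these fits, and 19 of the 80 named and not called did in at least 1. The 150 were picked by their calls and the fits reuse the same libraries, so a kept sign says little about stability. The male libraries alone lost 93 of 150 named calls. Medians of the B cell and blood cell lists changed sign when counts were thinned to the smallest total. Scaling by upper quartiles moved the median of all genes to 0.05. Differences in genes of a few counts, such as Il5 and Il13, are limited by the depth of WT.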

Other observations

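Ion transport genes held 2 of 14 tested members that rose (1 without Mem replicates 2 or 4, each in turn) and 0 that fell (1 without WT replicate 1), with a median log2 fold change of -0.14. Car4, a membrane carbonic anhydrase, was at 84.7 to 188 CPM in WT and 313 to 924 in Mem (log2 2.50 ± 0.43, adjusted p = 0.00335) and was called with any 1 library left out. Ano1, a chloride channel of interstitial cells and epithelium, was at 21.4 to 44.9 CPM in WT and 27.5 to 165 in Mem (log2 1.88 ± 0.44, adjusted p = 0.0171), not called without Mem replicates 2 or 4 (adjusted p up to 0.0693). The sodium exchanger Slc9a3 was at 3.87 to 18.1 CPM in WT and 5.70 to 102 in Mem, with an adjusted p of 0.0686. Capn13, a calpain protease on none of the lists, rose (log2 4.87 ± 0.59, adjusted p = 0.00024), as did Mptx2, the relative of Mptx1 (log2 2.15 ± 0.51, adjusted p = 0.0174), the latter not without Mem replicates 2 or 4 (adjusted p up to 0.0719).

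Junction and respiratory genes moved less. Of 12 claudin and junction genes 2 fell (3 without Mem replicate 1), Cldn3 (log2 -0.84 ± 0.23, adjusted p = 0.0326) and Cldn7 (log2 -0.80 ± 0.24, adjusted p = 0.0474). Cldn3 was not called without WT replicates 1, 2, 3 or 4 or Mem replicates 2, 3, 4 or 5 (adjusted p up to 0.109), and Cldn7 not without WT replicates 1, 2, 3, 4 or 5 or Mem replicates 2, 3, 4 or 5 (adjusted p up to 0.151). Of 14 respiratory chain genes 1 fell, Ndufa4, at 169.6 to 332 CPM in WT and 75.5 to 142 in Mem (log2 -1.24 ± 0.28, adjusted p = 0.0139), not called without Mem replicate 4 (adjusted p up to 0.0551). Of 12 stress and handling genes 1 fell (2 without WT replicate 5 or Mem replicate 1), Junb (log2 -1.12 ± 0.30, adjusted p = 0.0315), not called without WT replicates 1, 2 or 4 or Mem replicates 2, 3, 4 or 5 (adjusted p up to 0.101), and Fos was lowest in WT replicate 1, at 15.8 CPM, against 155 to 256 in the other WT libraries.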
